A study of Mus musculus with 7 samples.

Results

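Chromosome 12 of the mouse carries 58 genes, spread along its length from Rab10 to Siva1, that form the subject here. All 58 lie on this chromosome in the RefSeq gene table. They were chosen by their values in these arrays, because genes of this chromosome lay higher in Met1 than in DB7 tumours, so their differences between the lines are given as a description without a test. A single-symbol probe set measured 50 of the 58 genes, through 123 probe sets. Of these genes, 48 passed the filter on low values (3 or more of the 7 arrays with a value over the median of that array) and are called tested members, among 7482 tested genes in all. Rnaseh1 and Sh3yl1 did not pass it, and their probe sets differed by 0.17 and 0.56 (Met1 minus DB7, log2). No single-symbol probe set listed Asxl2, Asap2, Kidins220, Cog5, Prkar2b, Baz1a, Eif2s1 or Erh, and Erh shared its probe set with a further symbol. These 8 genes are not analysed here.

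Met1 and DB7 are mouse mammary tumour lines, each grown here as transplanted tumours and measured on 1-colour Affymetrix arrays, with 3 Met1 and 4 DB7 samples. Both are known to derive from mice whose mammary epithelium expressed a polyoma virus middle T oncogene from a mouse mammary tumour virus promoter. Met1 is known as a line that spreads readily and DB7 as one that seldom does, with DB7 carrying an altered form of that oncogene. Each group is therefore 1 transplantable line. The labels give no treatment or time, nor the age or strain of the host mice, while the design text speaks of F1 outcross tumours. They do not say that each array came from its own animal, so the spread between samples may be partly technical.

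A chromosome carries genes of unrelated function, and what its genes share is their physical linkage. Tumour cells commonly gain or lose whole chromosomes or arms, and the RNA of genes on a gained chromosome is known to rise in many tumours, though seldom by the same amount for every gene. A gain from 2 to 3 copies corresponds to a log2 ratio of 0.58. DNA was not measured in these samples, and the part of copy number in the values below was not tested.

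Promoter sequences of 4 members are printed first, because the members have their chromosome in common and these letters show how different their start regions are. Among the 19 tested members whose only listed promoter begins at the gene's end in the RefSeq table, Rab10, Ifrd1 and Churc1 had the largest difference in the first, middle and last stretch of the chromosome, and Kif3c had the difference nearest 0 of these 19. Each run holds the 250 bases before the start on the gene's own strand, from RefSeq on GRCm38.p6. Rab10 lies at chr12:3309970-3310219 on the minus strand, Ifrd1 at chr12:40223190-40223439 on the minus strand, Churc1 at chr12:76765288-76765537 on the plus strand and Kif3c at chr12:3364882-3365131 on the plus strand. Capitals mark the GC box GGGCGG and the CCAAT box in either orientation.
Rab10: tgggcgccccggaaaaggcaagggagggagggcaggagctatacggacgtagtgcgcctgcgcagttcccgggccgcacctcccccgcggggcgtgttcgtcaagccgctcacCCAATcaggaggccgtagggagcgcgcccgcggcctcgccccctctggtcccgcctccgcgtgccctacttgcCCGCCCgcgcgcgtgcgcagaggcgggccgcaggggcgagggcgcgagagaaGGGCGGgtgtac
Ifrd1: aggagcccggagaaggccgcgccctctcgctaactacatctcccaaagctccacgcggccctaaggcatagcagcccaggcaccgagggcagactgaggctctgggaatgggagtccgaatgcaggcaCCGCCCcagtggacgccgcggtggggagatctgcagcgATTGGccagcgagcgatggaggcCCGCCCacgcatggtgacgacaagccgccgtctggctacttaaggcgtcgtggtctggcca
Churc1: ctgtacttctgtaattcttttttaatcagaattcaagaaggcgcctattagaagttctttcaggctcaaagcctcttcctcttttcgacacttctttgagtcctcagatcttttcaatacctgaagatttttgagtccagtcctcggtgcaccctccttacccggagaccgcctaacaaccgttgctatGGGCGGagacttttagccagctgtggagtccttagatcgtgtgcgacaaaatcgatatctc
Kif3c: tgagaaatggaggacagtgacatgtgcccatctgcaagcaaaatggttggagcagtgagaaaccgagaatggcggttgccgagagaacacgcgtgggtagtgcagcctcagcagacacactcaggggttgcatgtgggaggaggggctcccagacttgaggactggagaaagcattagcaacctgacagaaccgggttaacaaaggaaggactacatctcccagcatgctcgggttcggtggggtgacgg

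These 250 bases were 74.8% G and C in Rab10, 66.4% in Ifrd1, 45.2% in Churc1 and 55.6% in Kif3c. Rab10 and Ifrd1 each had 2 GC boxes and 1 CCAAT box, Churc1 had 1 GC box, and Kif3c had neither motif. The 3 members with large differences thus spanned the whole range of G and C content among these 4. The table listed a promoter for 44 of the 48 tested members, and the first listed window of each gene (250 bases before and 50 after the start) was searched on both strands. A GC box lay in 72.7% of these windows, in 66.8% of those of 6060 tested genes and in 35.9% of all 27018 windows of the table. CCAAT lay in 43.2%, 37.9% and 37.9%, and the TATA box TATAAA in 9.09%, 7.23% and 14.2%. For the E-box CACGTG, which the member Max is known to bind with its partners, the shares were 9.09%, 10.4% and 7.24%. ACGTG, the core of hypoxia response elements and a part of that E-box, lay in 20.5%, 26.2% and 19.7%. The core GCGTG, known from binding of the Ahr protein, lay in 68.2%, 53.2% and 32.5%. The median G and C content was 66.3% in members, 61.3% in tested genes and 52.7% in the whole table. A motif match is a description of these letters only.

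Most members lay higher in Met1, but by unequal amounts. Of the 48 tested members, 45 lay higher in Met1 and 3 lower, with a median difference of 0.45 (log2, middle 50% from 0.21 to 0.62) and a range from -0.46 for Hpcal1 to 1.47 for Fut8. Over all 7482 tested genes the median difference was -0.04, with 42.6% higher. In limma's fit across the array, 31 members were called higher at an adjusted p under 0.05 where 13% of all genes were, and 1 was called lower where 17.9% of all genes were. Met1 and DB7 values did not overlap for 33 members that were higher, against 16.2% of all genes. Because the members were chosen on this contrast, nothing is read from these shares. Without the arrays DB7 1 and DB7 4, which had higher B cell and fibroblast markers than the other DB7 arrays, 43 of 48 members lay higher, with a median of 0.40.

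**Figure D1:**
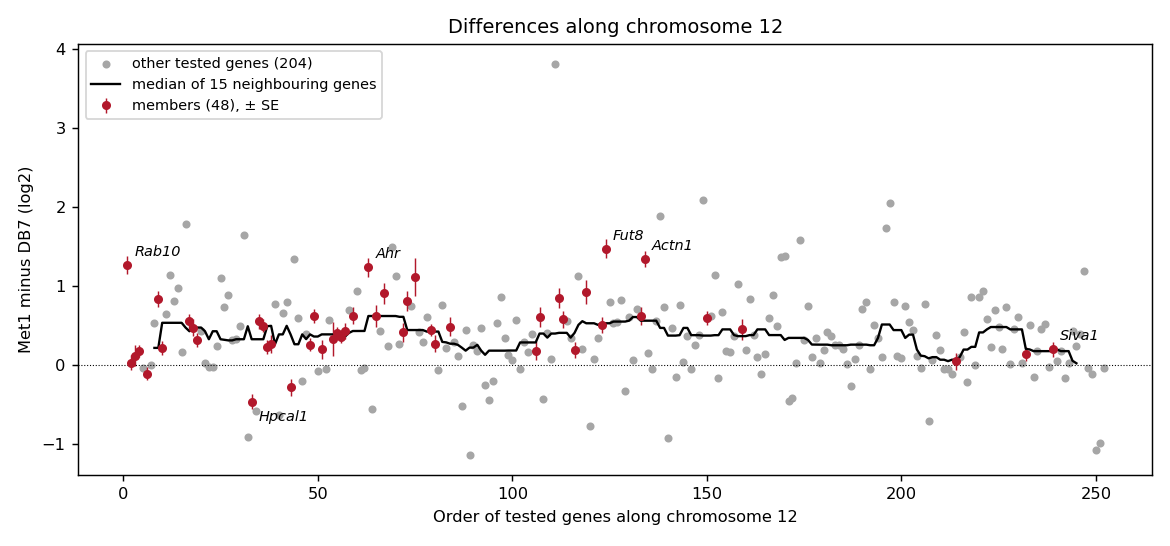
Difference between Met1 and DB7 (log2, y axis) for each tested gene of chromosome 12 in its order along the chromosome (x axis). Red points are the 48 members with their SE, grey points the 204 other genes, and the line is the median of 15 neighbouring genes, which stayed between 0.02 and 0.62. Hpcal1 is the lowest member and Fut8 the highest.

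The size of the difference varied along the chromosome and between neighbours. In chromosomal order the first 16 tested members, Rab10 to Rnf144a, had a median difference of 0.25, with 13 higher and 3 lower in Met1. The middle 16, Adi1 to Cfl2, had a median of 0.44, and the last 16, Nfkbia to Siva1, a median of 0.54, with all 32 of these higher. At their brightest probe sets the last 3 members in order differed by 0.05 for Papola, 0.14 for Eif5 and 0.20 for Siva1, while other tested probe sets reached 1.33 for Papola, 0.56 for Eif5 and 0.28 for Siva1. The Papola probe set at 1.33 passed the filter through Met1 only. Spearman's rank correlation of the difference with the order was 0.25 over the 48 members and -0.03 with the mean level, both as descriptions of genes measured on the same arrays. The SD of the members' differences was 0.40, while the median SE of a single difference was 0.10. For 23 of the 48 members the difference lay within 2 SE of the members' median. Among all tested genes, 55.1% lay within 2 SE of their own median. Log2 of 3 over 2, at 0.585, was met or passed by 16 members, with Hif1a at 0.578 not among them. That mark is a ratio of DNA copies, while the values are RNA levels of bulk tumours, and DNA was not measured. The members were chosen for lying higher in Met1, so the count of 16 is a description.

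The other genes of chromosome 12 set the members in context. Between Rab10 and Siva1 lay 191 other tested genes, of which 150 were higher and 41 lower in Met1, with a median difference of 0.34. Without the intensity filter the median over all other genes of the chromosome fell from 0.32 to 0.12 (334 genes). Of the 191 genes between Rab10 and Siva1, 92 were called higher and 10 lower (48.2% and 5.24%). Over all tested genes 42.6% lay higher in Met1, 13% were called higher and 17.9% lower. As the chromosome was picked for this contrast, these shares are a description. The SD of the 191 differences was 0.58 with Tmem30b at 3.82 included, against 0.40 for the members. The members were chosen on this contrast, so nothing is read from the wider SD of the others. Beyond Siva1 lay 13 tested genes with a median of 0.02, 7 higher and 6 lower, and among them the immunoglobulin genes Igha and Ighm differed by -1.07 and -0.99, high in DB7 1 and DB7 4 for Ighm (10.44 and 11.38 against 8.83 to 9.25 in the other DB7 arrays). In all 238 windows of 15 neighbouring tested genes, members included, the median lay above 0. Neighbouring windows share most of their genes and the chromosome was picked for this contrast, so the count is a description. When the 252 tested genes of the chromosome were divided into 6 equal runs, the medians were 0.38, 0.43, 0.32, 0.46, 0.26 and 0.18 from Rab10 onward.

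Chromosome 12 had the highest median of the 20 chromosomes with at least 20 tested genes. Its median over 252 genes, members included, was 0.35, with 80.2% of genes higher in Met1. Chromosomes 4 and 16 followed with medians of 0.12 and 0.09, and chromosome 3 had the lowest at -0.16. Tested genes of all other chromosomes together had a median of -0.05. Since the chromosome was picked for this contrast, its rank is a description with no test.

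**Figure D2:**
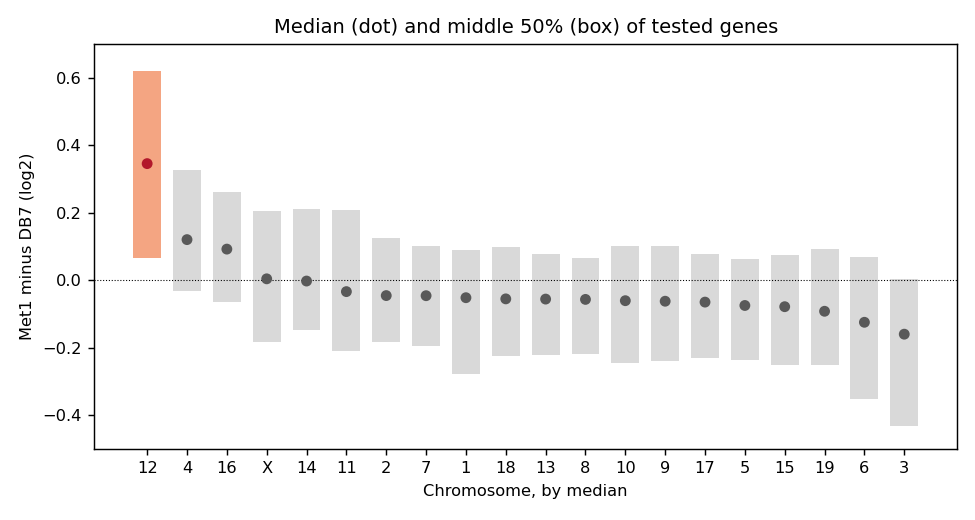
Median (dot) and middle 50% (box) of the difference Met1 minus DB7 (log2) for tested genes of each chromosome, ordered by median. The box of chromosome 12, in colour, runs from 0.07 to 0.62, and chromosome 4 comes next with a median of 0.12.

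The median member lay higher on each of the 3 Met1 arrays. Set against the mean of the 4 DB7 arrays, the median member lay 0.51 higher in Met1 1, 0.43 in Met1 2 and 0.41 in Met1 3. In these arrays 45, 42 and 45 of the 48 members lay above the DB7 mean. Because the members were chosen for lying higher in these same arrays, nothing is read from these counts. The 4 DB7 arrays lay at -0.04, 0.09, -0.0049 and -0.02 in order, and DB7 2 was the highest DB7 array for 25 members. DB7 2 also had the highest mean of the tumour epithelium markers Krt8, Krt18, Epcam and Cdh1 among the 7 arrays (11.23, against 11.00 to 11.16 in the other DB7 and 10.49 to 10.84 in the Met1 arrays) and a lower mean of 5 fibroblast markers (9.31) than DB7 1 (10.84) and DB7 4 (10.11), with DB7 3 at 8.70. Met1 had 9.72 to 10.69 for that list. The part of cell composition in the members' values was not tested. In these bulk tumours, more cells of a type and more RNA per cell cannot be told apart. The mean of 6 B and plasma cell markers reached 7.18 in DB7 1 and 7.51 in DB7 4. It was 5.88 in DB7 2, 6.05 in DB7 3 and between 5.73 and 5.91 in the Met1 arrays, and 1 of the 6, Ighm, passed the filter on low values. Means of 4 macrophage markers were 8.63 to 8.81 in Met1 and 7.999 to 8.79 in DB7, those of 4 endothelial markers 7.23 to 7.57 and 6.97 to 7.65, and those of 4 T cell markers 6.05 to 6.26 and 6.16 to 6.63. Of the epithelial markers 3 of 4 fell in Met1, of the macrophage markers 1 of 4 rose, and of the T cell markers 1 of the 2 tested fell (limma, adjusted p under 0.05). Among all tested genes 13% were called higher and 17.9% lower, and these lists are too short to set against those shares. None of the fibroblast or endothelial markers passed, nor did Ighm, the only B cell marker tested.

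**Figure D3:**
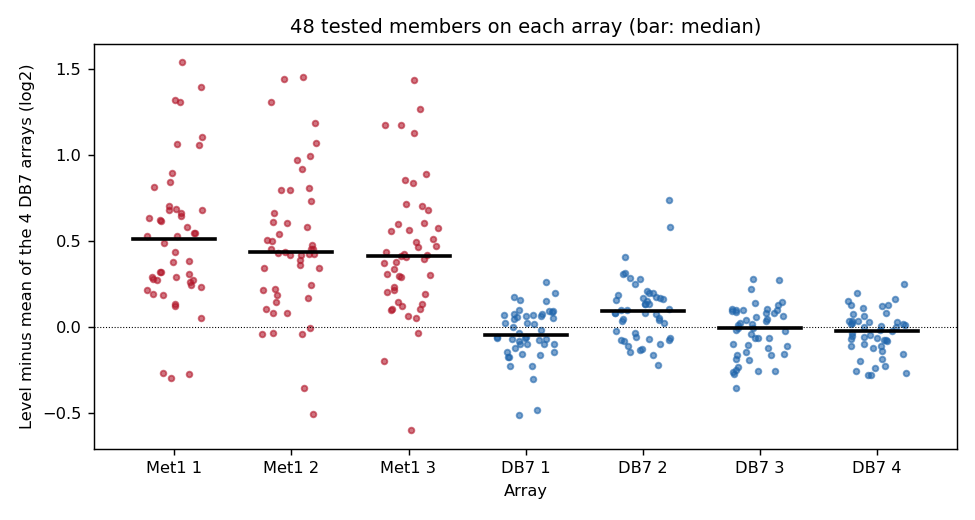
Level of each of the 48 tested members minus its mean over the 4 DB7 arrays (log2, y axis) on each array (x axis), with the median as a bar. The bars of the 3 Met1 arrays lie at 0.41 to 0.51 and those of the DB7 arrays at -0.04 to 0.09.

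Among regulators of transcription and chromatin, 8 tested members were all higher in Met1, with a median of 0.71. Members were chosen for lying higher in Met1, and 45 of all 48 did. Nothing is therefore read from such counts, here or in the role groups below. Ahr, the aryl hydrocarbon receptor, a transcription factor activated by dioxin-like ligands, measured 7.73, 7.52 and 7.47 in Met1 and 6.16, 6.31, 6.61 and 6.26 in DB7 (log2). Every Met1 value lay above every DB7 value, and the means differed by 1.24 (SE 0.12), or 2.36-fold. No DB7 array measured Ahr above its array median, so it passed the filter through Met1, and its other tested probe set differed by only 0.18. Ncoa1, a coactivator of steroid receptors, measured 8.45, 8.41 and 8.46 in Met1 and 7.63, 7.48, 7.46 and 7.86 in DB7. The groups did not overlap, and the difference of 0.84 (SE 0.10) was close to the 0.71 of its other probe set. For Churc1, a zinc finger protein known from vertebrate embryos, the values were 9.04, 9.14 and 9.04 in Met1 and 7.98, 8.56, 8.14 and 7.92 in DB7. DB7 2 lay nearest to Met1, and the difference was 0.93 (SE 0.15). Ifrd1, a regulator of transcription in differentiating and stressed cells, measured 9.21, 9.11 and 8.85 against 8.13, 8.34, 8.24 and 7.86, again without overlap, and differed by 0.91 (SE 0.13).

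Hif1a, the oxygen-regulated subunit of hypoxia-inducible factor 1, measured 9.24, 9.44 and 9.18 in Met1 and 8.55, 8.87, 8.68 and 8.74 in DB7. The groups were separate, with a difference of 0.58 (SE 0.10), and its other tested probe set, which passed the filter through Met1 only, differed by 0.24. Hif1a is known to be controlled mainly through degradation of its protein. Max, the shared dimer partner of the Myc and Mxd proteins, measured 8.31, 8.17 and 8.07 against 7.77, 7.81, 7.51 and 7.61, and the difference was 0.51 (SE 0.10). All 3 Met1 values exceeded the 4 DB7 values. Hbp1, a repressor of cell cycle genes, differed by 0.43 (SE 0.10). Dnmt3a, a de novo DNA methyltransferase, had 4 tested probe sets that did not move together. The brightest measured 7.94, 7.87 and 7.84 in Met1 and 7.77, 7.57, 7.74 and 7.74 in DB7, a difference of 0.18 (SE 0.08), while the 4 probe sets ranged from -0.41 to 0.81. The probe set at -0.41 passed the filter through DB7 only, and that at 0.81 through Met1 only.

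Cytoskeleton and adhesion members held some of the widest and narrowest differences. All 7 tested members lay higher in Met1, with a median of 0.48. Actn1, alpha-actinin 1, which crosslinks actin filaments and anchors them at adhesions, measured 9.63, 9.77 and 9.59 in Met1 and 8.52, 8.24, 8.20 and 8.32 in DB7. The groups were more than 1 log2 unit apart at every pair of arrays, the difference was 1.34 (SE 0.10, 2.54-fold), and its other probe sets differed by 0.61 and 0.96. Arhgap5, a GTPase-activating protein, measured 7.71, 7.68 and 7.78 in Met1 and 6.10, 7.34, 6.57 and 6.43 in DB7. DB7 2 lay well above the other DB7 arrays, and the difference of 1.12 had an SE of 0.24. Sdc1, a heparan sulphate proteoglycan of epithelial cells that plasma cells also carry, measured 8.56, 8.50 and 8.45 against 8.07, 8.18, 8.11 and 7.75. Its difference was 0.48 (SE 0.11), the lowest value was that of DB7 4, and its 4 tested probe sets ranged from 0.06 to 0.48. Itgb1bp1, a regulator of integrin beta 1, differed by 0.55, and Cfl2, a cofilin that severs actin filaments, by 0.27. Dtnb, a dystrobrevin, and Kif3c, a kinesin motor, differed by only 0.12 (SE 0.14) and 0.03 (SE 0.10).

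**Figure D4:**
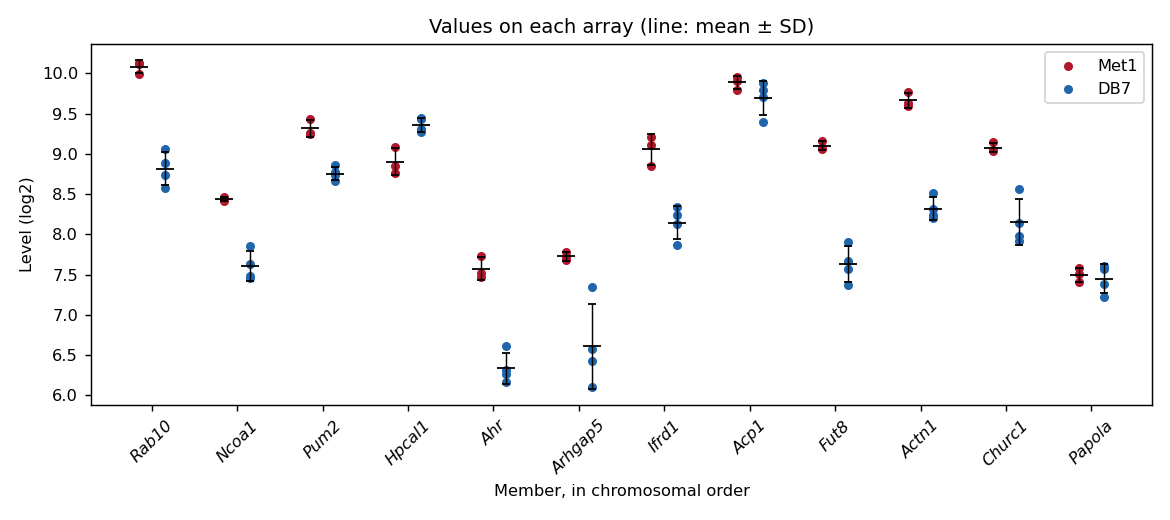
Level (log2, y axis) of 12 members, with 3 Met1 arrays in red and 4 DB7 arrays in blue, and the mean ± SD of each group. They are the 3 members with the highest and the 1 with the lowest signed difference of each stretch. Stretches follow chromosomal order, but within a stretch members run from the highest to the lowest difference, although the axis label names chromosomal order. The groups overlap for Acp1 and Papola, and Hpcal1 is lower in Met1.

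Membrane traffic members were higher in Met1 in all 8 tested cases, with a median of 0.43. Rab10, a small GTPase of secretory and endocytic traffic and the first member in order, measured 10.13, 10.12 and 9.99 in Met1 and 8.88, 9.06, 8.58 and 8.73 in DB7. The lowest Met1 value stood nearly 1 log2 unit above the highest DB7 value, and the difference was 1.27 (SE 0.12, 2.41-fold). Its other probe sets differed by 0.52 and 1.56. Trappc12, a subunit of a vesicle tethering complex, differed by 0.62 (SE 0.09). Npc2, which carries cholesterol out of lysosomes, Snx6, a sorting nexin, and Scfd1, a partner of Golgi SNARE proteins, differed by 0.45, 0.44 and 0.42. Bcap29, an endoplasmic reticulum protein, Laptm4a, a lysosomal membrane protein, and Itsn2, an endocytic scaffold, lay lower in this order at 0.36, 0.32 and 0.22.

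Signalling members lay on both sides of 0. Of 12 tested members, 9 lay higher and 3 lower in Met1, with a median of 0.25. Prkch, a protein kinase C, and Strn3, a striatin scaffold of phosphatase 2A, differed by 0.85 and 0.82, Prkch with no DB7 array above its array median. Ppm1a, a phosphatase that acts on stress kinases and Smad proteins, differed by 0.61. Numb, an inhibitor of Notch that is partitioned at cell division, measured 8.24, 8.23 and 8.18 in Met1 and 7.54, 7.78, 7.66 and 7.48 in DB7. The groups did not overlap, the difference was 0.60 (SE 0.09), and the other tested probe set of Numb differed by 0.08. Nfkbia, the inhibitor that holds NF-kB in the cytoplasm and is itself induced by it, measured 11.09, 10.85 and 10.80 against 10.37, 10.46, 10.64 and 10.23. The difference was 0.49 (SE 0.12), with its 4 tested probe sets between -0.07 and 0.49.

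Hpcal1, a neuronal calcium sensor of the visinin family, went the other way. It measured 9.09, 8.86 and 8.76 in Met1 and 9.43, 9.27, 9.44 and 9.31 in DB7, so that every Met1 value lay below every DB7 value, and it differed by -0.46 (SE 0.10). Its neighbours in the order of tested genes, Odc1 and Gm9222, lay lower in Met1 as well, at -0.91 and -0.58. These non-members were singled out after their values were seen. Rnf144a, a ubiquitin ligase, and Adcy3, an adenylyl cyclase, differed by -0.28 (SE 0.11) and -0.11 (SE 0.08).

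Adam17, the sheddase that releases tumour necrosis factor and several ligands of the epidermal growth factor receptor, measured 8.51, 8.48 and 8.50 in Met1 and 8.37, 8.34, 8.11 and 8.25 in DB7. The difference was small, at 0.23 (SE 0.09), although the groups did not overlap, and its 3 probe sets ranged from 0.17 to 0.38. Acp1, a low molecular weight tyrosine phosphatase, had the lowest difference of the middle stretch. Its values were 9.96, 9.91 and 9.79 in Met1 and 9.39, 9.88, 9.79 and 9.70 in DB7. The groups overlapped and differed by 0.20 (SE 0.12). Ywhaq, a 14-3-3 protein, differed by 0.26 at its brightest probe set, the smallest of the 7, which ranged up to 0.89. Siva1, a proapoptotic protein and the last member, differed by 0.20.

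RNA processing and translation members were higher in Met1 in all 7 tested cases, with a median of 0.50. Zfp36l1, which binds AU-rich elements and speeds mRNA decay, measured 9.58, 9.83 and 9.54 in Met1 and 9.21, 8.97, 8.85 and 9.11 in DB7. Its brightest probe set differed by 0.62 (SE 0.11) without overlap, and its other tested probe set by -0.29. Pum2, a Pumilio repressor of translation, measured 9.43, 9.26 and 9.25 against 8.66, 8.86, 8.74 and 8.77. The groups were separate, with a difference of 0.56 (SE 0.09), and all 3 of its probe sets lay above 0.3. Papola, the main nuclear poly(A) polymerase, measured 7.58, 7.40 and 7.51 in Met1 and 7.22, 7.61, 7.57 and 7.39 in DB7 at its brightest probe set. The groups overlapped there and differed by 0.05 (SE 0.11), whereas its other tested probe set differed by 1.33. No DB7 array measured that other probe set above its array median, so it passed the filter through Met1. Bzw2, a regulator of start codon choice, differed by 0.62 at one probe set and by -0.59 at the other. Cpsf3, the endonuclease of mRNA 3' end cleavage, differed by 0.50. Cbll1, a ubiquitin ligase of the m6A writer complex, differed by 0.41, and Eif5, a translation initiation factor, by 0.14.

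Metabolic members were all higher in Met1 in 6 tested cases, with a median of 0.29. Fut8, which adds the core fucose to N-glycans, had the largest difference of any member. Its single tested probe set measured 9.17, 9.07 and 9.07 in Met1 and 7.57, 7.91, 7.37 and 7.67 in DB7. The lines were more than 1 log2 unit apart at every pair of arrays and differed by 1.47 (SE 0.12, 2.78-fold). Nampt, the rate-limiting enzyme of NAD salvage, measured 8.50, 8.61 and 8.23 against 7.90, 7.75, 7.91 and 7.71, and differed by 0.63 (SE 0.11) without overlap. Dld, the lipoamide dehydrogenase shared by 2-oxoacid dehydrogenases, differed by 0.33 with a wide SE of 0.22. Adi1 of the methionine salvage pathway, Mthfd1 of folate metabolism and Dhrs7, a short-chain dehydrogenase, differed by 0.26, 0.19 and 0.19.

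Probe sets of the same member often gave different sizes. Of 95 tested probe sets of members, 85 lay higher in Met1, with a median of 0.38. Of the 27 members with several tested probe sets, 5 had them on both sides of 0, namely Dnmt3a, Adi1, Bzw2, Nfkbia and Zfp36l1. The pooled SD of differences within genes was 0.35, against the SD of 0.40 between members, and the median range within a gene was 0.33. These values include probe sets of Ahr, Papola, Dnmt3a and Hif1a that passed the filter through a single line. Npc2 had the closest pair, both at 0.45.

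**Figure D5:**
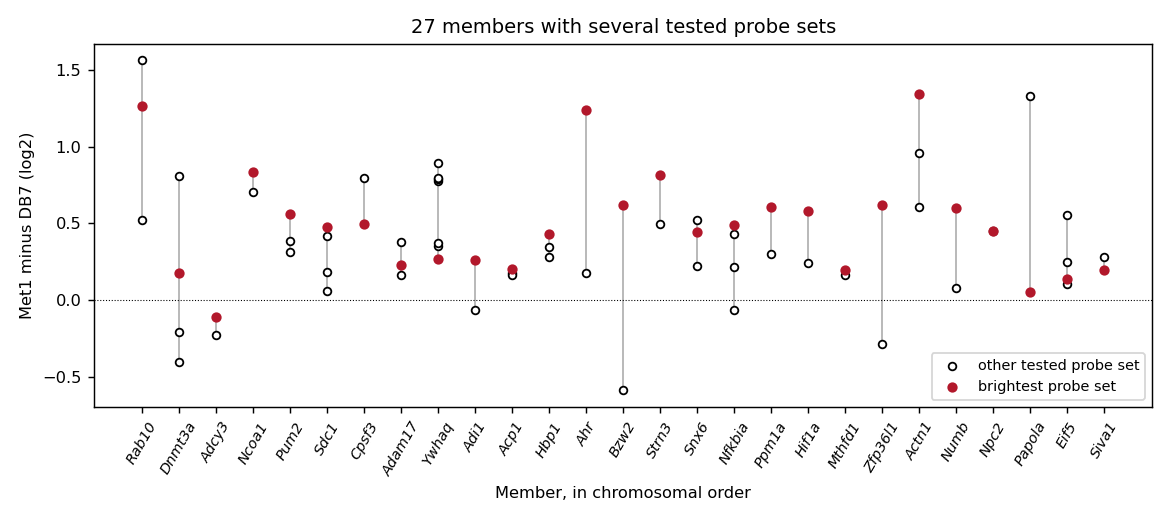
Difference Met1 minus DB7 (log2, y axis) of every tested probe set of the 27 members with several, in chromosomal order. Filled points are the brightest probe sets, which stand for the gene. Rab10, Dnmt3a, Ahr, Bzw2 and Papola each span more than 1 log2 unit, and Npc2 has both probe sets at 0.45.

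Complex partners and close relatives of the members that are coded on other chromosomes moved in both directions. Of 132 genes listed, 1 lay on chromosome 12 and was left out, 110 were measured and 95 tested. Of the 95, 9 rose, 14 fell and 72 did not pass (limma, adjusted p under 0.05 over all tested probe sets), and their median difference was -0.02. Among all tested genes 13% were called higher and 17.9% lower, so the 24.2% of partners called was no larger a share. Under median centring of the arrays 12 rose and 11 fell. Zfp36l2, a relative of Zfp36l1, measured 10.13, 10.02 and 10.09 in Met1 and 9.09, 8.85, 8.66 and 8.96 in DB7. It rose by 1.19 (SE 0.11, limma, adjusted p = 9.82e-05), with every Met1 value above every DB7 value. Dbt and Dlat, acyltransferases of the complexes in which Dld works, fell by 1.80 and 0.61 (limma, adjusted p = 0.000421 and 0.000997). Dbt lay at 5.51 to 5.60 in Met1 and 6.92 to 7.99 in DB7, so it passed the filter through DB7. Sdc2, a relative of Sdc1, rose by 0.70 and Ywhab, a relative of Ywhaq, rose by 0.63 (adjusted p = 0.00076 and 0.00143). Ikbkg, a subunit of the kinase complex that acts on Nfkbia, rose by 0.77 (adjusted p = 0.000454). Adcy9, a relative of Adcy3, fell by 0.61, and Cstf2, a cleavage stimulation factor, by 0.50 (adjusted p = 0.00226 and 0.00279). The calls of Ikbkg, Ywhab and Cstf2 were lost when all probe sets of a gene were averaged (adjusted p = 0.132, 0.0716 and 0.0692), and that of Ikbkg also under a stricter intensity filter (difference 0.07, adjusted p = 0.543).

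Known targets of the member regulators were examined on the other chromosomes. Of 13 tested hypoxia-inducible genes, 1 rose, 6 fell in Met1 and 6 did not pass, with a median of -0.33, where 13% of all tested genes were called higher and 17.9% lower. The Hif1a probe set was 0.58 higher, and its protein was not measured. Car9, a carbonic anhydrase at the cell surface, measured 8.57 ± 0.10 (SD, n = 3) in Met1 and 7.57 ± 0.16 (SD, n = 4) in DB7 and rose by 1.00 (limma, adjusted p = 0.000174). Pfkfb3, a regulator of glycolysis, fell by 1.38 and Bnip3, a mitophagy receptor, by 1.10 (limma, adjusted p = 0.000466 and 0.00223). Kdm3a, a histone demethylase, fell by 0.61 and Pdk1, a kinase of pyruvate dehydrogenase, by 0.43 (limma, adjusted p = 0.00114 and 0.00576). Vegfa, the endothelial growth factor, fell by 0.72 and P4ha1, a prolyl hydroxylase of collagen, by 0.38 (limma, adjusted p = 0.0224 and 0.028). Both of the last calls depended on single arrays, being lost on leaving out any of 4 among the 7. For Vegfa the losses came in the fits without DB7 2, DB7 3, Met1 2 or Met1 3, and for P4ha1 in those without DB7 3, DB7 4, Met1 1 or Met1 3, with adjusted p up to 0.095 and 0.122. The call of P4ha1 was also lost without both DB7 1 and DB7 4 (adjusted p = 0.0881). Pgk1, a glycolytic kinase, differed by -0.33 and did not pass (limma, adjusted p = 0.05003), but passed without DB7 1 (adjusted p = 0.0147). It also passed with its probe sets averaged and without both DB7 1 and DB7 4 (limma, adjusted p = 0.0337 and 0.00598). Without probe sets of the _s_at, _x_at and _a_at types it differed by -0.46 and passed (limma, adjusted p = 0.00964).

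Of 6 listed Ahr targets, 2 were tested and 0 passed in limma. Cyp1b1, a cytochrome P450 of xenobiotic metabolism, differed by 0.32 (SE 0.26) and Tiparp, a feedback inhibitor of Ahr, by 0.15 (SE 0.13), with adjusted p of 0.394 and 0.412. Cyp1b1 passed without DB7 1 (limma, adjusted p = 0.0462) and without both DB7 1 and DB7 4 (limma, adjusted p = 0.0143). Cyp1a1, the classic Ahr target, lay near 4.74 in Met1 and 4.73 in DB7, below the array medians of 6.53 to 6.61. Of 16 listed NF-kB targets, 8 were tested and 0 passed in limma, and 2 of these 10 Ahr and NF-kB genes, both NF-kB targets, had an unadjusted p under 0.05. The largest differences among the tested NF-kB targets were those of Ccl5 (-0.31), Sod2 (-0.28), Bcl3 (0.25) and Birc3 (-0.24). Ccl5 passed without DB7 2 (limma, adjusted p = 0.0286) and Sod2 without DB7 4 (limma, adjusted p = 0.0316). Sod2 also passed with probe sets averaged and with the replicate number as a block (limma, adjusted p = 0.0314 and 0.0393). It passed without both DB7 1 and DB7 4 too (limma, adjusted p = 0.0117). Bcl3 passed under quantile normalization (limma, adjusted p = 0.0485).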

How the data were processed

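The samples were 7 Affymetrix arrays of mouse tumours, 3 of Met1 and 4 of DB7. The values deposited by the authors are log2 probe set levels, and RMA and MAS5 are both listed in the submitters' processing notes, with no word on which of them gave this table. The sources used here give neither the log base nor the scaling in words, and log2 was taken from the range of the values. Symbols came from GEO's platform annotation, and chromosome and gene order from RefSeq.

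Of 22690 probe sets, 64 controls were dropped, and 11704 with a value above the array median on at least 3 arrays were tested. The brightest tested probe set stood for a gene, which gave 7482 genes, 252 of them on chromosome 12. The lines were compared with limma 3.58.1 under R 4.3.3, its prior variance following intensity, with Benjamini-Hochberg adjustment over all tested probe sets at 0.05. The fit was tested on simulated data. The number of arrays limits the precision.

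The members and gene lists were chosen with earlier results of these data known. The members given with every array's value are those with the 3 highest and the lowest signed difference in each of 3 stretches, and 10 genes picked for their roles. The other tested members are given by their difference. Up to 8 genes per partner or target list with the smallest p are named. Alternatives changed the probe set rule, filter, centring, quantile normalization, trend, probe set type, replicate block and arrays left out. Same-numbered arrays did not deviate together (correlations -0.17, -0.05 and 0.02), so the numbers were not used to pair them.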

Additional observations from a re-analysis of the deposited data

Results flagged for a closer look

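Among 74 genes examined for a single DB7 array far from the other DB7 arrays, 2 met the criterion. That is no larger a share than the roughly 1 in 20 that chance alone gives. Birc3, an inhibitor of apoptosis and NF-kB target, measured 7.60 in DB7 1 and 7.23 in each of the other DB7 arrays, which held an identical value. Dnmt3a measured 7.57 in DB7 2, below the 7.74 to 7.77 of the other DB7 arrays.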

How the results depend on the processing

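The median difference over the members was 0.38 when all probe sets of a gene were averaged. The median over the other chromosome 12 genes was 0.12 with no intensity filter. Without probe sets of the _s_at, _x_at and _a_at types 2302 of 7450 probe sets were called across the array, where fewer were tested by construction. Averaging probe sets gives no count of probe sets called. Leaving out each array in turn gave 0.42 to 0.49 for the members' median, 0.38 to 0.42 for the SD of their differences and 44 to 45 members higher. It gave 0.26 to 0.33 for the median of the other chromosome 12 genes, 16 to 27 partner genes called, 5 to 9 target genes called and 2468 to 3802 probe sets called. Quantile normalization called 3 target genes that rose and 6 that fell. With the replicate number as a block, 2803 probe sets, 20 partner genes and 7 target genes were called, and the members' median was 0.42. That fit gives no weight to DB7 4, whose number no Met1 array has, and the numbers do not pair the arrays. Brightness over background limits Ahr, Prkch and Dbt, which lay below the array median on every array of one line. The same holds for further tested probe sets of Papola (1.33), Dnmt3a (0.81 and -0.41) and Hif1a (0.24), which do not stand for their genes. Arhgap5 and Cbll1 lay above the array median on all 3 Met1 arrays but on only 1 DB7 array.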
